A study of Mus musculus with 8 samples.

Results

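Accessible chromatin was examined at 7 genes that encode subunits of the GABA-A receptor: Gabra2, Gabra3, Gabra4 and Gabra5 (alpha subunits), Gabrb1 and Gabrb2 (beta subunits) and Gabrd (the delta subunit). The genes were taken as a fixed list, and every peak overlapping a gene body, or the 20 kb on either side of it, in the mm10 build was assigned to that gene. These windows held 68 of the 90691 regions that were among the 50000 strongest of at least 1 library, and the 7 genes were among 21887 protein-coding genes. Tissues were compared first, and no gene or region passed an adjusted p of 0.05. One tissue was the dissected dorsal lateral geniculate nucleus (dLGN), the thalamic station of the visual pathway, and the other was brain sections. Gabra2 and Gabrb1 held fewer of the strongest regions in every dLGN library than in any section library, as did 8.95% of all genes. At Gabra2 the tissues overlapped when longer lists were used. Single regions in several of the genes, Gabra2, Gabra4, Gabrb1 and Gabrb2 among them, ranked higher in the dLGN. Of the 68 regions, 12 (17.6%) ranked higher in every dLGN library, near the 16.7% of all regions. Lower ranks were held by 18 (26.5%), where 14.4% of all regions held them.

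ATAC-seq uses Tn5 transposase to cut open chromatin and tag the cut ends for sequencing, and it was applied to aliquots of 50000 nuclei from C57Bl/6J mouse brain, in 4 groups of 2 libraries. The Fn14 KO group lacked Fn14, a cytokine receptor encoded by Tnfrsf12a, and the Fn14 WT group were wild-type littermates. Both gave untreated coronal sections of flash-frozen brain at postnatal day 27, holding cortex, hippocampus and dLGN. The PLX chow group ate chow with a compound that the labels spell PLX5562, given to deplete microglia, and the control chow group ate control chow. Both diets began at postnatal day 20 and gave microdissected dLGN at postnatal day 32. The labels do not describe how the Fn14 allele was made or in which cells it is lost, and they do not say that the libraries of a group came from separate animals, so the spread between libraries may be technical. Tissue, age, dissection and the feeding of study chow differ together between the sections and the dLGN and cannot be told apart. The section side of that comparison includes Fn14 KO libraries and the dLGN side includes PLX chow libraries. In bulk tissue, fewer cells of a type and less open chromatin per cell cannot be told apart.

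GABA-A receptors are chloride channels opened by GABA, the main inhibitory transmitter of the brain, and each is a ring of subunits. The alpha subunit sets much of the receptor's location and drug response, and the beta subunit contributes to the GABA binding site and is needed for assembly. Receptors with alpha4 and delta sit outside synapses and carry tonic inhibition, which is prominent in thalamic relay neurons. The alpha5 subunit is known for its abundance in hippocampus, alpha3 for the reticular nucleus of the thalamus, and alpha2 for forebrain synapses, including those at the axon initial segment.

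The promoters of the members differ in composition, and 5 are shown because the region covering each start, or its absence, is described with the values that follow. RefSeq promoter sequences (assembly GRCm38.p6, the mm10 build) were matched for 6 of the 7 genes, with 10 promoters of 300 bases, each running from 250 bases before a start to 50 bases after it. Gabrd had no match. Capitals mark the motifs found on either strand among those searched, which were the TATA box TATAAA, the CCAAT box, the GC box GGGCGG, the CREB element TGACGTCA, the AP-1 element TGANTCA, the EGR element GCGTGGGCG and the NRF1 element GCGCATGC. The last is part of a palindrome, so that its matches on opposite strands can overlap.
Gabra2 start 1: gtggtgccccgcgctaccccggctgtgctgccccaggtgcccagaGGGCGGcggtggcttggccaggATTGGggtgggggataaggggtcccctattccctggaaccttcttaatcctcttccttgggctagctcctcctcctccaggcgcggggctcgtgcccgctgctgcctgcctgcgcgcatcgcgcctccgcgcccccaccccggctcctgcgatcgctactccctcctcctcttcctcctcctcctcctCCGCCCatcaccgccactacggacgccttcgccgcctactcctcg
Gabra3 start 1: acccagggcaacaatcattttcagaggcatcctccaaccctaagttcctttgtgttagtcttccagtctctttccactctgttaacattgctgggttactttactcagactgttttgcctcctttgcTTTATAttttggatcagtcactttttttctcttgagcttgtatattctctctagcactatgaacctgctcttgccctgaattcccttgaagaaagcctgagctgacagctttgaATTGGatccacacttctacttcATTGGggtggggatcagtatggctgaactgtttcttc
Gabra4 start 1: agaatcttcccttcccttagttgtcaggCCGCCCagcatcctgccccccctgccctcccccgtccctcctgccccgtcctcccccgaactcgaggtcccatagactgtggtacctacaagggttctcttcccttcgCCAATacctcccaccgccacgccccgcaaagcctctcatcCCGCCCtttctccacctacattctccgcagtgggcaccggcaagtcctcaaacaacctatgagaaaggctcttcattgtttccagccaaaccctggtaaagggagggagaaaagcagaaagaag
Gabrb1 start 2: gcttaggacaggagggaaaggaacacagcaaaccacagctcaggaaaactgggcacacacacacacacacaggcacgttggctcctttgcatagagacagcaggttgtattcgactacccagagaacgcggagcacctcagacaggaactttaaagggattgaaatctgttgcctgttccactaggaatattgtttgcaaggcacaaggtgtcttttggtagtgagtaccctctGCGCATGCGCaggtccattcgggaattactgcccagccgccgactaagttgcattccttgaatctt
Gabrb2 start 1: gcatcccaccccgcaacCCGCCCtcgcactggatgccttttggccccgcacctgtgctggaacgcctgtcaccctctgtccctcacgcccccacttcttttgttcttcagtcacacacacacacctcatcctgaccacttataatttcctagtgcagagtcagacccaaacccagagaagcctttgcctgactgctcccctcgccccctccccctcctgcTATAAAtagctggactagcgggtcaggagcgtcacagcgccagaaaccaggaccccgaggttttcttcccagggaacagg
The Gabra2 promoter lies at chr5:71095800-71096099 on the minus strand, with 70.0% G+C and 25 CpG. Over the 32851 promoters of the table the medians were 52.7% G+C and 7 CpG. It holds GGGCGG 2 times and CCAAT 1 time. The first Gabra3 promoter, at chrX:72656870-72657169 on the minus strand, has 43.0% G+C and 0 CpG, and holds TATAAA 1 time and CCAAT 2 times. The Gabra4 promoter, at chr5:71658259-71658558 on the minus strand, has 58.7% G+C, 12 CpG, 2 matches to GGGCGG and 1 to CCAAT. The promoter of the second Gabrb1 start, at chr5:71699682-71699981 on the plus strand, has 50.3% G+C and 9 CpG and holds GCGCATGC on both strands at overlapping positions. The first Gabrb2 promoter, at chr11:42420190-42420489 on the plus strand, has 59.0% G+C and 11 CpG, with 1 match to TATAAA and 1 to GGGCGG. Of all promoters in the table, 13.6% hold TATAAA, 37.4% CCAAT, 35.7% GGGCGG and 2.71% GCGCATGC. The remaining motifs were found in none of the 10 promoters of the members, against 1.79% of all promoters for TGACGTCA, 7.81% for TGANTCA and 0.612% for GCGTGGGCG.

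The libraries differed in list length and in the scale of their p-values. Read depth is unknown. The libraries held between 248989 and 299822 deposited peaks, which merged into 192168 to 218214 regions, and the weakest of the 50000 strongest regions had a −log10 p between 13.4 and 33.0. It was 13.4 to 21.5 in the sections and 25.2 to 33.0 in the dLGN, so equal values in the 2 tissues are not equal ranks. Ranks within the 50000 strongest regions, with rank 1 the strongest and 50001 given to a region outside them, were therefore compared. The −log10 p of single regions is given beside them as a description. At Tnfrsf12a no peak was listed in either Fn14 KO library, and the strongest peak showed a −log10 p of 13.6 and 8.02 in the Fn14 WT libraries and between 10.0 and 25.3 in the dLGN libraries. Of 8 thalamic neuron markers, Foxp2 and Prox1 held more of the strongest regions in every dLGN library than in any section library, and Rora and Cacna1g held fewer. Gbx2, another of the 8, was at 0 in all section libraries and in 2 of the 4 dLGN libraries. Of 8 markers of cortical and hippocampal excitatory neurons, 0 held more in the dLGN and 3 held fewer, with 23 to 26 regions summed over the list in the sections and 15 to 18 in the dLGN. The 6 inhibitory neuron markers summed to 6 to 9 in the sections and 6 to 10 in the dLGN, with Gad1 lower in the dLGN and Lhx6 at 0 in every library. The part of these marker differences in the results for the subunit genes was not tested.

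The first comparison asked how the 7 genes differ between dLGN and sections. Each window's number of regions among the 50000 strongest was counted per library and compared over 4 dLGN and 4 section libraries with a 2-sided exact permutation test. Its 70 splits give 0.0286 as the smallest p, and p-values were adjusted by the Benjamini-Hochberg method over 18142 genes. Of the 7 genes, 0 held more regions in every dLGN library than in any section library, where 6.54% of all genes did. Fewer were held by 2 of 7, where 8.95% of all genes did. The median difference (dLGN minus sections) was −0.75 regions over the 7 members and 0 over all genes tested. After adjustment 0 of 18142 genes passed 0.05, while 2810 had an unadjusted p under 0.05. The smallest adjusted p was 0.184. A gene could pass only if most genes tested had the smallest p, so the adjusted test cannot decide whether a gene of this list differs.

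**Figure D1:**
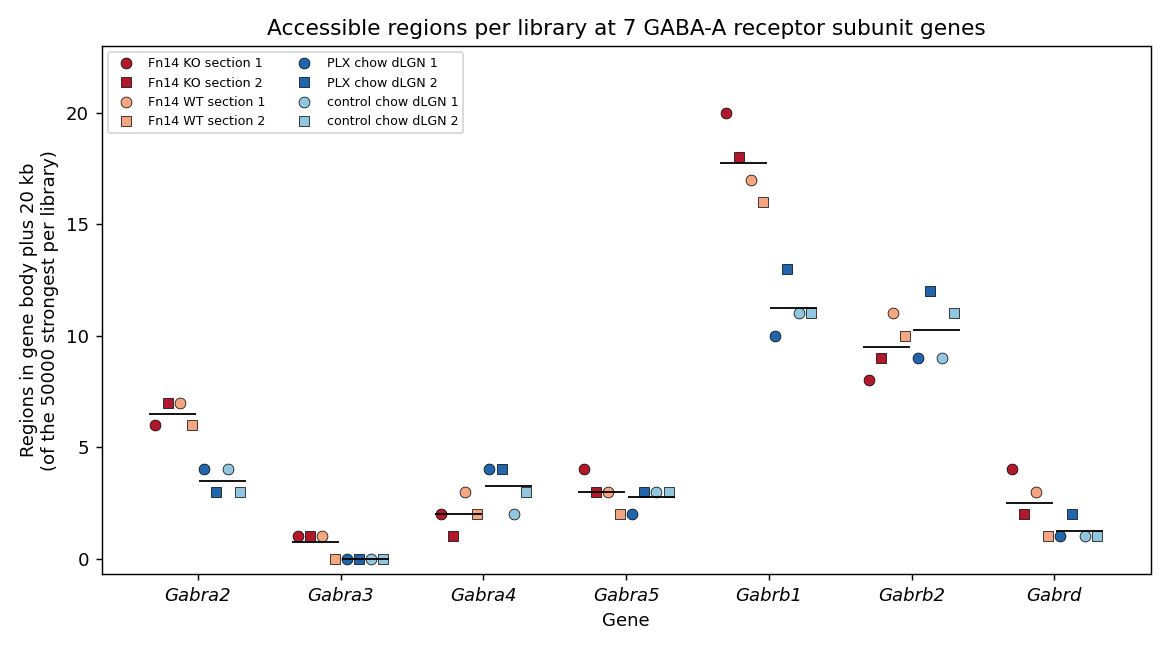
Number of regions among the 50000 strongest of a library (vertical axis) in the window of each of the 7 GABA-A receptor subunit genes, with 1 point per library and colours for the 4 groups; horizontal lines are the mean of the 4 libraries of a tissue. The dLGN and section libraries do not overlap at Gabra2 (3 to 4 against 6 to 7) and Gabrb1 (10 to 13 against 16 to 20).

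Gabra2 (chromosome 5, 70958392 to 71095849, minus strand) encodes the alpha2 subunit. Its window held 6 and 7 strong regions in the Fn14 KO libraries, 7 and 6 in the Fn14 WT libraries, and 4 and 3 under each of PLX chow and control chow. The mean was 3.5 ± 0.58 in the dLGN and 6.5 ± 0.58 in the sections (SD, n = 4 each; exact permutation p = 0.0286, Benjamini-Hochberg adjusted p = 0.184). Every section library was above every dLGN library. Using the 100000 strongest regions or all deposited peaks ended this separation.

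The 8 regions of Gabra2 did not move together. Of the 8, 4 (50%) ranked lower in every dLGN library and 1 (12.5%) ranked higher, where 14.4% and 16.7% of all regions did. The region at 71057932 to 71058781, inside the gene and 37560.5 bp from the start, reached a −log10 p of 299 and 233 under PLX chow and 297 and 221 under control chow. In the Fn14 KO libraries it was 18.3 and 8.29, and in the Fn14 WT libraries 19.9 and 8.46. The dLGN libraries thus stood far above all section libraries, although every library listed a peak there. The authors' fold enrichment was 15.1 to 18.6 in the dLGN and 2.64 to 4.15 in the sections. It ranked 3236 to 5728 in the dLGN, and in the sections it was among the 50000 strongest only in Fn14 WT 1, at 40571. This region was picked as the one of the gene with the highest −log10 p, a scale that runs higher in the dLGN. No tissue p-value is therefore given for it.

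Other Gabra2 regions went the opposite way. At 71025824 to 71026666, 69728 bp from the start, the −log10 p was 62.0 and 82.7 in the Fn14 KO libraries and 31.2 and 33.3 in the Fn14 WT libraries. No dLGN library listed a peak there. Its summits lay within 32 bp of each other in the 4 section libraries, with a fold enrichment of 6.92 to 10.1. The region at 70995567 to 70996336 had 46.0, 60.6, 49.8 and 48.6 in the sections (Fn14 KO 1 and 2, then Fn14 WT 1 and 2). In the dLGN it had 2.26 and 7.92 with PLX chow and 0 (no peak) and 5.69 with control chow, below all section libraries. At 71061591 to 71062171, only a few kb from the region that was high in the dLGN, the sections had 35.1 to 69.2 and the dLGN 8.65 to 23.2. The start itself, covered by a region at 71094839 to 71096850, was listed strongly in both tissues, with 59.3 to 98.6 in the sections and 101 to 138 in the dLGN, and its ranks overlapped (7865 to 14070 and 10516 to 14333).

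**Figure D2:**
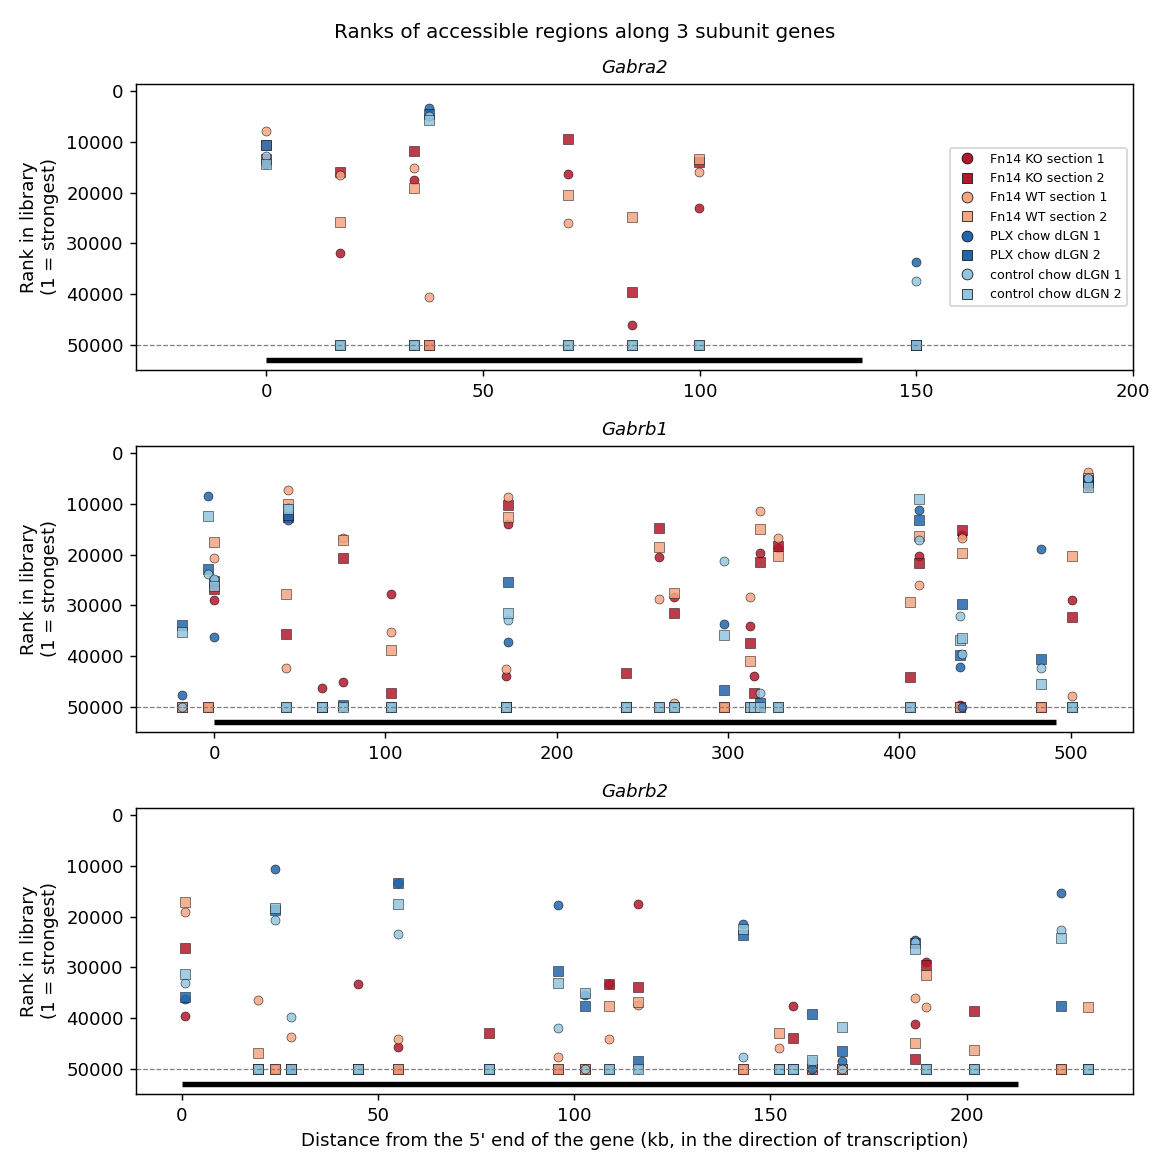
Rank of each region among the 50000 strongest of a library (vertical axis, strongest at the top) against its distance from the gene's 5′ end, for Gabra2, Gabrb1 and Gabrb2, with 1 point per library. Black bars are gene bodies, and points on the dashed line, which overlie each other, are outside the 50000 strongest. Each of the 3 genes has regions where only section libraries leave the line and regions where only dLGN libraries do.

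Gabra3 (chromosome X, 72432676 to 72656919, minus strand), which encodes the alpha3 subunit, held almost none of the strongest regions. It had 1 in each of both Fn14 KO libraries and in Fn14 WT 1, and 0 in Fn14 WT 2 and in all 4 dLGN libraries. The tissues overlapped at 0 (mean 0 in the dLGN and 0.75 ± 0.50 in the sections, SD, n = 4 each; exact permutation p = 0.143, adjusted p = 0.427). No region covered the start of the CpG-free promoter shown above. The nearest region, at 72655427 to 72656238, lies inside the gene, with a median summit 908 bp from the nearest start. That start, at 72656807, is not the one whose promoter is shown. The region reached −log10 p values of 23.7, 11.4, 20.2 and 13.4 in the sections and 9.4, 17.7, 33.0 and 12.5 in the dLGN, which overlap. A peak inside the gene at 72562767 to 72563029 was listed in 3 section libraries (24.2, 7.8 and 4.27) and in no dLGN library, and was missing from Fn14 KO 1.

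Gabra4 (chromosome 5, 71569734 to 71658308, minus strand) encodes the alpha4 subunit, which pairs with delta in thalamic relay neurons. Its window held 2 and 1 strong regions in the Fn14 KO libraries, 3 and 2 in the Fn14 WT libraries, 4 and 4 with PLX chow, and 2 and 3 with control chow. The means were 3.25 ± 0.96 in the dLGN and 2.0 ± 0.82 in the sections (SD, n = 4 each; exact permutation p = 0.2, adjusted p = 0.558), and the tissues overlapped at 2 and 3. With the 100000 strongest regions the difference turned to −2.25, so the count of strong regions gives no direction for this gene that holds across list lengths.

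A single Gabra4 region separated the tissues. It lies at 71653854 to 71654571, inside the gene and 4133.5 bp from the start, and its −log10 p was 153 and 62.2 with PLX chow and 78.6 and 120 with control chow. In the Fn14 KO libraries it was 17.5 and 6.79 and in the Fn14 WT libraries 11.4 and 6.05, all below the dLGN values. Its fold enrichment was 6.34 to 10.1 in the dLGN and 2.25 to 3.12 in the sections. It ranked 8497 to 23734 in the dLGN and was outside the 50000 strongest in all 4 section libraries. It entered the comparison through the dLGN libraries alone, so no tissue p-value is given for it. The same region lies in the window of Gabrb1, since the 5′ ends of the 2 genes overlap, and it cannot be assigned to one of them. The region over both starts, at 71656625 to 71658563, overlapped between tissues in rank (17592 to 28989 in the sections and 24801 to 36261 in the dLGN).

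Gabra5 (chromosome 7, 57407669 to 57591016, minus strand) encodes the alpha5 subunit. Its window held 4, 3, 3 and 2 strong regions in the sections (Fn14 KO 1 and 2, then Fn14 WT 1 and 2) and 2, 3, 3 and 3 in the dLGN (PLX chow 1 and 2, then control chow 1 and 2). The means of 2.75 ± 0.50 and 3.00 ± 0.82 regions in dLGN and sections (SD, n = 4 each) did not separate (exact permutation p = 1). The start, covered at 57508690 to 57510353, had −log10 p values of 15.7 to 43.6 in the sections and 17.1 to 29.3 in the dLGN. This region ranked 24559 and 27578 in Fn14 KO and 49728 and 24451 in Fn14 WT. It ranked 48496 in PLX chow 2 and was outside the strongest regions, at 50001, in the other dLGN libraries. Its mean rank was weaker in the dLGN (49625 against 31579), but the ranks overlapped (exact permutation p = 0.0571, adjusted p = 0.164).

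Gabrb1 (chromosome 5, 71657921 to 72149572, plus strand) encodes the beta1 subunit and is the longest member, at 491652 bp. Its window held 20 and 18 strong regions in the Fn14 KO libraries, 17 and 16 in the Fn14 WT libraries, 10 and 13 with PLX chow, and 11 and 11 with control chow. All section libraries were above all dLGN libraries, with means of 17.8 ± 1.71 and 11.2 ± 1.26 (SD, n = 4 each; exact permutation p = 0.0286, adjusted p = 0.184). The deposited peaks in the window, strong or weak, numbered 92 to 122 in the sections and 62 to 76 in the dLGN. The lower count in the dLGN held under every list length and window size tried, and with Fn14 WT and control chow libraries alone (difference −5.5).

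Of the 25 regions of Gabrb1, 10 (40%) ranked lower and 4 (16%) higher in every dLGN library, where 14.4% and 16.7% of all regions did. The region at 71926263 to 71926933, 226661 bp from the nearest start, reached a −log10 p of 38.2 and 29.6 in the Fn14 KO libraries and 16.0 and 25.3 in the Fn14 WT libraries. No dLGN library listed a peak there. The region at 71917145 to 71917906 had 51.2, 57.1, 28.1 and 36.1 in the sections (Fn14 KO, then Fn14 WT), and in the dLGN 9.4 and 6.19 with PLX chow and 3.43 and 0 (no peak) with control chow. A further region at 72158556 to 72159085 had 37.6, 29.1, 16.4 and 33.3 in the sections and no peak in any dLGN library. It lies 8984 bp beyond the gene and overlaps Commd8, so it cannot be assigned to Gabrb1 alone.

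Regions of Gabrb1 with higher ranks in the dLGN included one at 71955115 to 71955665, with a −log10 p of 44.0 and 27.8 with PLX chow and 87.9 and 41.4 with control chow. In the sections it was 14.5, 9.88, 13.3 and 9.6 (Fn14 KO, then Fn14 WT), below all dLGN libraries. The second start, whose promoter is shown above, was covered by a region at 71699672 to 71700085 with 18.9 to 26.4 in the sections and 5.43 to 14.5 in the dLGN. In rank it did not separate the tissues, because it was outside the 50000 strongest in Fn14 KO 1 as in all dLGN libraries. The neighbouring region at 71700471 to 71701688 was strong in every library (62.9 to 107 in the sections and 108 to 160 in the dLGN). Its −log10 p was higher in the dLGN, but its ranks overlapped (7225 to 12507 in the sections and 10761 to 13226 in the dLGN). The strongest region of the window, at 72167517 to 72168508, overlaps Commd8, and its ranks overlapped between tissues (3735 to 6443 and 4936 to 6667).

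Gabrb2 (chromosome 11, 42419515 to 42632591, plus strand) encodes the beta2 subunit. The number of strong regions did not separate the tissues, with 8, 9, 11 and 10 in the sections (Fn14 KO, then Fn14 WT) and 9, 12, 9 and 11 in the dLGN (PLX chow, then control chow). Means were 10.2 ± 1.5 in the dLGN and 9.50 ± 1.29 in the sections (SD, n = 4 each; exact permutation p = 0.629, adjusted p = 1). With the 25000 strongest regions the tissues did separate, every dLGN library being higher (difference 3.25, exact permutation p = 0.0286), while with all deposited peaks the difference was −8.75, so the count has no direction that holds across list lengths. Among the 50000 strongest, 6 of its 21 regions (28.6%) ranked higher in every dLGN library, where 16.7% of all regions did. Lower ranks were held by 3 (14.3%), near the 14.4% of all regions.

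The Gabrb2 region with the highest −log10 p in any library, at 42443135 to 42443731 and 22240 bp from the nearest start, reached a −log10 p of 130 and 74.8 with PLX chow and 90.8 and 83.9 with control chow. In the sections it had 20.7 and 4.27 in Fn14 KO, and 9.94 and 0 (no peak) in Fn14 WT. All dLGN libraries were above all section libraries, with ranks of 10637 to 20573 against none among the 50000 strongest. The region at 42474350 to 42475143 had a similar mean rank in the dLGN, with 107, 100, 79.8 and 88.0 there (PLX chow, then control chow) and 23.7, 10.7, 18.0 and 7.02 in the sections. It too was higher in every dLGN library. The region at 42562297 to 42562997, 141292 bp from the start, had 70.7, 59.7, 35.3 and 68.8 in the dLGN (PLX chow, then control chow). In the sections only Fn14 KO 1 (4.61) and Fn14 WT 1 (4.39) listed it. A region at 42643438 to 42643882, 10847 bp beyond the gene, had 36.2 to 95.7 in the dLGN and a peak in only 1 section library, Fn14 WT 1 (5.49). In the other direction, the region at 42608806 to 42609765 had 37.5, 31.8, 21.3 and 22.0 in the sections and at most 4.7 in the dLGN. The region over the starts, at 42419148 to 42421795, overlapped between tissues in rank (17066 to 39512 in the sections and 31196 to 36263 in the dLGN). Its summits lay within 12 bp of each other, at a median of 72 bp from the nearest start (42421201). The promoter shown above belongs to another start, at 42420440, so these ranks describe a peak centred elsewhere in the region.

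**Figure D3:**
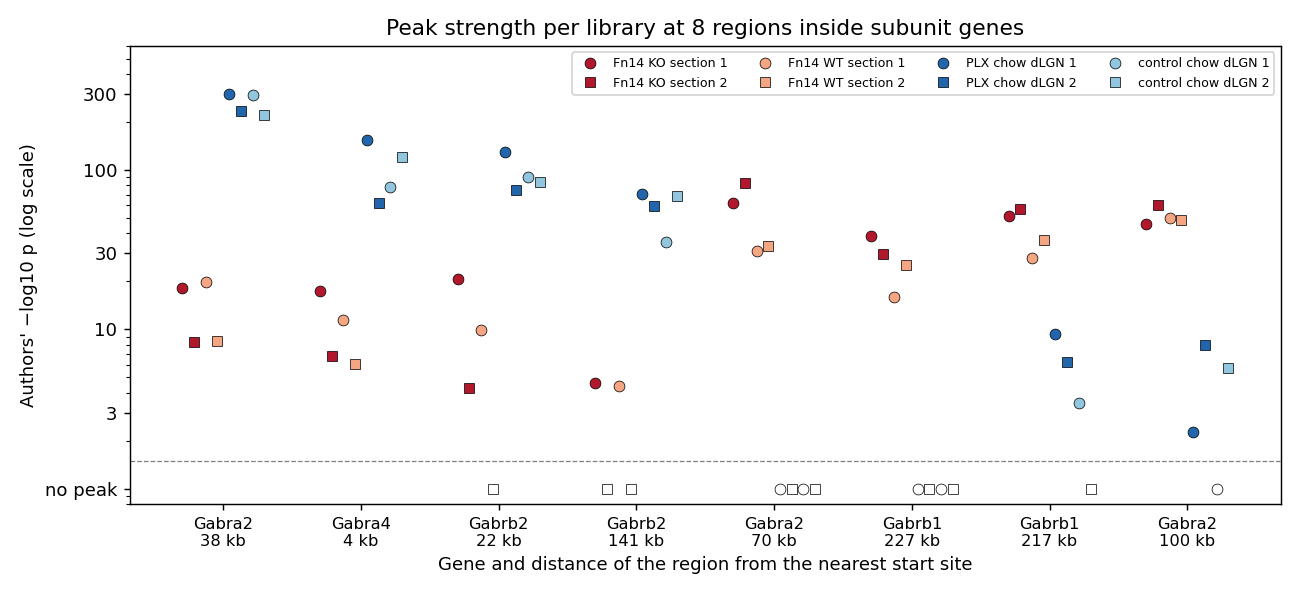
The −log10 p of the strongest peak (vertical axis, a logarithmic scale) in each of the 8 libraries at 8 regions of Gabra2, Gabra4, Gabrb1 and Gabrb2, named by gene and distance from the nearest start in kb. Open symbols mark libraries with no deposited peak; 4 regions are higher in every dLGN library and 4 in every section library.

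Gabrd (chromosome 4, 155384979 to 155398098) encodes the delta subunit of extrasynaptic receptors and is the shortest member, at 13120 bp. Its window held 4, 2, 3 and 1 strong regions in the sections (Fn14 KO, then Fn14 WT) and 1, 2, 1 and 1 in the dLGN (PLX chow, then control chow). The tissues overlapped, with means of 1.25 ± 0.50 in the dLGN and 2.50 ± 1.29 in the sections (SD, n = 4 each; exact permutation p = 0.257, adjusted p = 0.694). A region inside the gene, at 155395409 to 155395944, which also overlaps Cfap74, reached a −log10 p of 30.3, 17.9, 17.7 and 11.9 in the sections and no peak in any dLGN library. Another inside the gene, at 155387221 to 155387479, had 22.7, 28.7, 25.7 and 19.9 in the dLGN and 0 (no peak), 5.2, 3.42 and 10.6 in the sections, but it reached the 50000 strongest only in PLX chow 2. The strongest region of the window, at 155408553 to 155410013, lies 10455 bp outside Gabrd and overlaps Cfap74. It ranked lower in every dLGN library (11235 to 19996) than in any section library (7518 to 9170).

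Counted once each, 58 of the 68 regions overlapped a member's gene body and 10 lay outside, 5 covered a start, and 39 had a peak in all 8 libraries. In rank, 12 of 68 (17.6%) were higher in every dLGN library than in any section library, where 16.7% of all 90691 regions were. A further 18 (26.5%) were lower, where 14.4% of all regions were. With Fn14 WT and control chow libraries alone, 2 against 2, 15 of 57 (26.3%) were higher and 27 (47.4%) lower, where 27.2% and 28.0% of all regions were. When regions were selected and ranked by fold enrichment instead, 14 of 72 were higher and 13 lower, with no share over all regions computed. The balance between directions among the members thus depended on the measure. After adjustment over all regions 0 passed 0.05, and 28181 had an unadjusted exact p under 0.05. As for genes, a pass needed most regions to have the smallest p. The median difference in mean rank, dLGN minus sections, was 2930.75 for the members and 675.25 for all regions, a positive value meaning a weaker rank in the dLGN.

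A stricter criterion asked for a region among the 50000 strongest of every library on one side and no peak at all listed on the other side. It was met in the dLGN direction by 0 of 38 member regions (1.97% of all regions) and in the section direction by 3 (3.58% of all regions). The 3 are those in Gabra2 at 71025824, in Gabrb1 at 71926263 and beyond Gabrb1 at 72158556. When any deposited peak counted as presence, 0 of the 68 member regions had a peak in every dLGN library and in no section library. The reverse was shown by 7 of the 68. Over all regions the shares were 4.40% and 9.52% of the 88774 with a peak in every library of at least 1 tissue. That base was not counted for the members, so the shares are not set against each other.

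**Figure D4:**
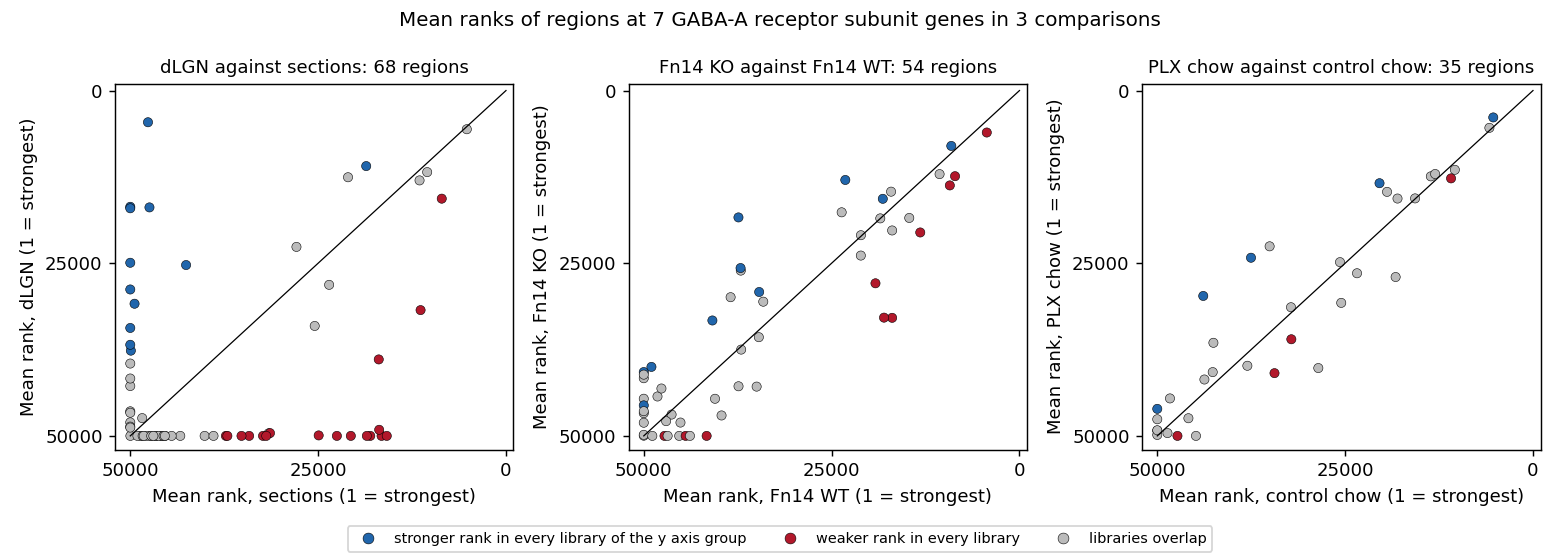
Mean rank of each member region in 2 groups of libraries, with 1 point per region: dLGN against sections (68 regions), Fn14 KO against Fn14 WT (54) and PLX chow against control chow (35). Points far from the diagonal are frequent in the tissue panel, where many regions lie at rank 50001 on 1 axis.

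The second comparison asked whether loss of Fn14 changes accessibility at these genes within sections. With 2 libraries against 2 there are 3 splits and the smallest exact p is 0.333, so no difference can pass a test, and the values are a description. Gabrb1 held more strong regions in Fn14 KO (20 and 18) than in Fn14 WT (17 and 16), 1 of 7 genes against 9.37% of all genes. Gabrb2 held fewer (8 and 9 against 11 and 10), 1 of 7 against 6.47% of all genes. The libraries of the other 5 genes overlapped. Both gaps were of 1 region between the nearest libraries. Neither separation held at any other list length tried (25000, 100000 or all deposited peaks).

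In rank, 10 of the 54 member regions listed in these libraries were higher in both Fn14 KO libraries than in either Fn14 WT library, and 10 were lower (18.5% each), where 16.1% and 16.4% of all regions were. The region in Gabra2 at 71025824, absent from the dLGN lists, was among those higher in Fn14 KO, at ranks 16379 and 9515 against 25987 and 20375. In Gabra5 the region at 57474009 to 57474680, inside the gene, reached a −log10 p of 80.4 and 37.7 in Fn14 KO and 32.7 and 10.5 in Fn14 WT. In Gabrb2, the region at 42574997 to 42575456 had 29.1 and 21.5 against 15.2 and 7.71. These did not overlap between genotypes, but in both the Fn14 KO libraries lay further from each other than the nearest libraries of the genotypes did.

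Of the 5 regions covering a start, 3 ranked lower in both Fn14 KO libraries. At Gabra2 the ranks were 14070 and 13405 against 7865 and 10674, although the −log10 p overlapped (71.3 and 62.2 against 98.6 and 59.3). The shared start of Gabra4 and Gabrb1 had 28989 and 26826 against 20739 and 17592, and Gabrb2 had 39512 and 26248 against 18993 and 17066. Over all regions covering a RefSeq start, 20.2% were lower and 20.4% higher in Fn14 KO. At the shared start of Gabra4 and Gabrb1 the −log10 p itself was 37.4 and 34.6 in Fn14 KO and 38.8 and 38.0 in Fn14 WT, a narrow gap. No member region was among the strongest of both libraries of one genotype and absent from the other (0 of 36 in each direction, against 0.0255% of all regions in Fn14 KO only and 0.00849% in Fn14 WT only).

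The third comparison asked whether PLX chow changes accessibility at these genes in the dLGN, again with 2 libraries against 2 and no test that can pass. Gabra4 held more strong regions with PLX chow (4 and 4) than with control chow (2 and 3), 1 of 7 genes against 3.20% of all genes. Of the others, 0 held fewer in both PLX chow libraries, against 3.65% of all genes. The region behind part of this count, at 71612325 to 71612823 inside Gabra4, reached a −log10 p of 28.9 and 29.1 with PLX chow and 24.9 and 26.3 with control chow. It ranked 47196 and 44977 with PLX chow, close to the end of the list, and outside the 50000 strongest with control chow. The separation of Gabra4 was lost at every other list length tried, with 25000 or 100000 regions and with all deposited peaks.

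Of the 35 member regions listed in these libraries, 5 (14.3%) ranked higher in both PLX chow libraries, where 12.0% of all regions did, and 4 (11.4%) ranked lower, where 13.6% did. The strong Gabra2 region at 71057932 was among the higher ones, at ranks 3236 and 4552 against 4844 and 5728, although its −log10 p overlapped (299 and 233 against 297 and 221). The region covering the Gabrb2 start was among the lower ones, at 36263 and 35757 against 33122 and 31196. No member region was among the strongest of both libraries of one diet and absent from the other (0 of 28 in each direction, against 0.00211% of all regions for PLX chow only and 0.00% for control chow only). The 5 microglial markers held 6 and 5 strong regions with PLX chow and 7 and 5 with control chow, which overlap.

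The other genes of GABA signalling were taken from a list of 32 receptor, synapse, synthesis and transport genes, of which 30 held a strong region. Of the 32, 3 held more strong regions in every dLGN library than in any section library and 5 held fewer, beside the 6.54% and 8.95% of all genes given for the members. None passed an adjusted p of 0.05, a level within reach only if most genes tested had the smallest p. Slc6a11, which encodes a GABA transporter of astrocytes, had 6, 8, 9 and 8 in the sections (Fn14 KO, then Fn14 WT) and 1, 4, 2 and 2 in the dLGN (PLX chow, then control chow). Gabbr2, a subunit of the metabotropic GABA-B receptor, had 21, 19, 16 and 17 in the sections and 15, 15, 14 and 14 in the dLGN. Both were lower in all dLGN libraries. Slc12a2, a chloride importer, was higher there, with 3, 3, 4 and 5 in the sections and 7, 7, 6 and 6 in the dLGN. Aldh5a1, an enzyme of GABA breakdown, was also higher, with 3, 4, 5 and 4 against 7, 7, 6 and 7. Between genotypes 3 of the 32 were higher and 2 lower in Fn14 KO (9.37% and 6.47% of all genes). Between diets 3 were higher and 8 lower with PLX chow (3.20% and 3.65% of all genes).

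Over the 8 libraries, the gene of this list whose region count followed Gabrb1 most closely was Gabbr2 (Pearson r = 0.91). For Gabra2 it was Gabarap (r = 0.91), which encodes a receptor-associated protein and had 5, 5, 6 and 5 in the sections and 4 in each dLGN library. For Gabrb2 it was Aldh5a1 (r = 0.55). The 8 points share 2 tissues and the fixed list length, so these values are a description.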

How the data were processed

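Chromatin accessibility was measured by ATAC-seq in 8 mouse brain libraries, in 4 groups of 2. Peaks were called per sample on mm10 with the ENCODE ATAC-seq pipeline at a p threshold of 0.01. This is stated by the instructions deposited with the lists, whose names record a limit of 300000 peaks. The submitters' processing notes name deepTools 3.5.0. The sources used here do not name the aligner or the peak caller. For every peak the authors deposited a display score, the fold enrichment (a ratio), −log10 of the p-value and q-value, and a summit position. They were used to rank peaks within a list, and are quoted for single regions as a description whose scale differs between libraries. Fn14 KO 1 and 2 came close to that limit, and their weakest peaks had a −log10 p of 2.85 and 2.05, against 2.0 in the others, so absence is read less far down in them. Read depth is unknown, and counting intervals could not be computed.

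Within each library, peaks sharing at least 1 bp were joined into regions, keeping the highest −log10 p and fold, and the 50000 strongest regions by −log10 p were kept per library. The union over libraries gave the regions compared. Gene positions came from a RefSeq table of assembly GRCm38.p6, which gives no exons, so regions are placed inside or outside genes only. Exact permutation tests were 2-sided, with Benjamini-Hochberg adjustment over all genes or regions, in Python 3.11.15 with numpy 2.4.6 and pandas 2.3.3, and were tested on simulated data. Libraries or groups "separate" where no value of one overlaps the other. The rule for single regions took those present on one side only, those covering a start and the strongest of each gene; the other regions were chosen after their values were seen. A region and some marker genes that the rules name are not reported here. Of other GABA genes at most 4 were named, those with the largest tissue difference among genes whose libraries separate, and likeness was measured for genes with a mean of 3 or more regions. The members, lists and rules were chosen with earlier results of these data known. Alternatives were 25000 or 100000 regions, all deposited peaks, other windows (gene body alone, 5 kb, 50 kb), a 50% overlap, a looser absence, ranking by fold, the replicate number as a block, WT and control chow libraries alone, and leaving out each library. Cutting every list to 192168 regions was chosen after seeing the data.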

Additional observations from a re-analysis of the deposited data

How the results depend on the processing

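Gabra2 and Gabrb1 held fewer strong regions in the dLGN with 25000 strongest regions, every window tried, the replicate block, WT and control chow libraries alone, and each library left out (2 to 3 separated genes). With all deposited peaks 1 of these 2 genes separated (Gabrb1), and with 100000 regions Gabra2 overlapped and Gabra4 separated, lower in the dLGN. With 25000 regions Gabrb2 separated as well, higher in the dLGN, and without Fn14 WT 2 Gabra3 did, lower. The 3 regions present in one tissue only became 0 with 25000 regions, 7 with 100000, 31 with all deposited peaks and 9 when absence meant absence from the 100000 strongest (3 to 4 with a library left out). The 30 regions with separated ranks of 68 became 12 of 33 with 25000, 54 of 145 with 100000 and 42 of 57 with WT and control chow libraries alone (30 to 34 with a library left out). Between Fn14 genotypes 2 genes separated (Gabrb1 and Gabrb2). With 25000 regions it was 1 other gene (Gabra4), with 100000 it was 0, and with all deposited peaks 1 other gene (Gabra5). The gene body alone gave 1 and 5 kb gave 1, both Gabrb1. The replicate block gave 5, Gabrb1 and Gabrb2 included. The regions present in one genotype only rose from 0 to 22 with all deposited peaks. Leaving out a library gave 3 to 5 genes, at most 5 without Fn14 WT 1. Between diets 1 gene separated (Gabra4). With 25000 regions it was Gabra2 instead, with 100000 it was 2 others (Gabra5 and Gabrb1), with all deposited peaks 0, and with 50 kb 2 (Gabra4 and Gabrb1). The number ranged from 1 to 4 with a library left out (4 without PLX chow 1 and 3 without PLX chow 2). The regions present in one diet only rose from 0 to 5 with all deposited peaks. A group left with 1 library has no spread of its own, so those values carry no test. The direction of the difference in mean regions (dLGN minus sections) turned for Gabra4 (−2.25 with 100000, −3.75 with all deposited peaks, −0.25 with 50 kb), Gabra3 (2 with all deposited peaks), Gabrb2 (−8.75 with all deposited peaks, −0.5 with 50 kb and −0.5 with WT and control chow libraries alone) and Gabra5 (−0.583 to 0.0833 with a library left out, above 0 only without Fn14 KO 1, and 0.5 with WT and control chow libraries alone). The cause of these changes was not tested. Cutting every list to 192168 regions left the counts of regions present in one group only at 3, 0 and 0. By the labels, same-numbered libraries share only a number. Their deviations in rank correlated at 0.169 across 69519 regions between genotypes and −0.0406 across 61868 between diets. Pairs of groups from different tissues gave −0.0311 to 0.00965. Whether same-numbered libraries were handled together was not tested.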

Other observations

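The 7 regions with a peak in every section library and in no dLGN library were spread over 4 of the 7 genes. Besides the 3 named in the tissue comparison and the region inside Gabrd at 155395409, they were in Gabrb1 at 71898295 to 71898662, in Gabrb2 at 42574997 to 42575456 and beyond Gabrb2 at 42650183 to 42650699. The Gabrb1 region reached −log10 p values of 16.5, 21.8, 8.42 and 12.7 in the sections (Fn14 KO, then Fn14 WT). The region beyond Gabrb2 had 4.14, 9.47, 4.46 and 18.3. These were weak peaks, and of the 4 section libraries each reached the 50000 strongest in only 1 (Fn14 KO 2 and Fn14 WT 2). Beyond Gabra2, 12071 bp past the gene at 70945657 to 70946321, neither Fn14 KO library listed a peak, both Fn14 WT libraries did (4.97 and 9.09) and the dLGN had 22.6 to 47.7. The Fn14 WT peaks were weak and outside the 50000 strongest. The share of all regions with this pattern between genotypes was not computed.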
